A study of Gallus gallus with 9 samples.

Results

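The genes described here encode the nuclear-encoded subunits of the mitochondrial respiratory chain and ATP synthase, with the assembly proteins that share their symbols, in the livers of broilers, which are chickens bred for meat. They were chosen by name: every gene with a single symbol in the platform annotation that begins with NDUFA, NDUFB, NDUFC, NDUFS, NDUFV, SDHA, SDHB, SDHC, SDHD, UQCR, COX4, COX5, COX6, COX7, COX8 or ATP5. This gave 78 of the 13009 genes on the array, read by 141 probe sets. They comprised 34 genes of complex I, 2 of complex II, 8 of complex III, 8 of complex IV, 13 of ATP synthase (complex V) and 13 assembly or associated factors that the prefixes also matched (NDUFAF, SDHAF and ATP5S). Each gene was represented by its brightest probe set, the one with the highest mean signal over all 9 arrays. RNA came from 5 birds of the Se-yeast group and 4 of the control group, all ROSS308 commercial broilers aged 35 days, with 1 array per bird. Both groups ate a standard diet freely for 35 days; that of the Se-yeast group carried selenized yeast, adding 0.5 mg of selenium per kg, and that of the control group carried no added selenium. The labels give neither sex nor batch. Values are MAS5 probe set signals, scaled by the authors so that every array had a trimmed mean of 500.2, and array medians lay between 101 and 125.

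The respiratory chain sits in the inner mitochondrial membrane. Complex I (NADH dehydrogenase) and complex II (succinate dehydrogenase) pass electrons from nutrients to ubiquinone, complex III passes them on to cytochrome c, and complex IV (cytochrome c oxidase) hands them to oxygen. Complexes I, III and IV pump protons, and ATP synthase uses the returning protons to make ATP. A few core subunits are encoded by mitochondrial DNA. None matched the naming rule, and no gene with a single symbol was found under the symbols searched, so they were not analysed here. Liver depends on this chain for gluconeogenesis, urate synthesis and fatty acid oxidation, and its hepatocytes are rich in mitochondria. Of 12 hepatocyte markers listed, 10 were on the array (AHSG, ALB, APOA1, CPS1, F2, FGA, FGB, FGG, TAT and TTR), and all 10 passed the signal filter. All markers of macrophages and of T and B cells on the array passed it too, so passing does not check the identity of the tissue.

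No difference between the diets in a respiratory chain gene passed the test against the spread between birds. Of the 78 genes, 75 passed the signal filter, 35 of them higher and 40 lower in Se-yeast livers, with a median log2 change (Se-yeast minus control, on the log2(signal + 16) scale) of -0.007, beside 0.015 over all 10377 tested genes, of which 53.0% were higher. None of the 75 passed an adjusted p of 0.05 in limma (the smallest was 0.999), where 6 of all 23063 tested probe sets, or 0.026%, did. None reached an unadjusted p under 0.05 either, where 4.67% of all tested probe sets and 5.05% of all tested genes did. In none of the 75 were the birds of the 2 groups fully apart. This was so for 1.64% of all tested probe sets and 1.84% of all tested genes. The changes ran between -0.69 (SDHAF4) and 0.69 (ATP5G2).

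The 95% intervals of the changes, which are not adjusted for the number of genes, give the sizes that the data leave possible. For 63 of the 75 genes the whole interval lay inside a 1.5-fold change in either direction, and for 71 it lay inside a 2-fold change. Of all 10377 tested genes, 5018 and 8928 did. With a mean signal over 1000, these were 59 and 61 of 62 members, beside 2784 and 3578 of all 3736 tested genes. The median distance from the estimate to the end of its interval was 0.295 on the log2 scale. It was 0.437 over all tested genes and 0.331 over those with a mean signal over 1000. The spread between birds within a diet group (SD of log2(signal + 16)) had a median of 0.197 over the 75 genes, between 0.059 and 0.783, beside a median of 0.298 over all tested genes. The genes were also divided at a mean signal of 1000, a bound chosen after the values were seen. The 62 members above it had a median absolute change of 0.058 and a median spread of 0.157, while all 3736 tested genes above it had 0.113 and 0.224. The 13 tested members at or below it had a median absolute change of 0.263 and a median spread of 0.403. Beyond this bound the members and the other genes were not matched on signal. Cytosolic ribosomal proteins, 65 of the 67 tested with a mean signal over 1000, had a median absolute change of 0.073 and a median spread of 0.153. In bulk liver, fewer cells of a type and less RNA per cell cannot be told apart.

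**Figure D1:**
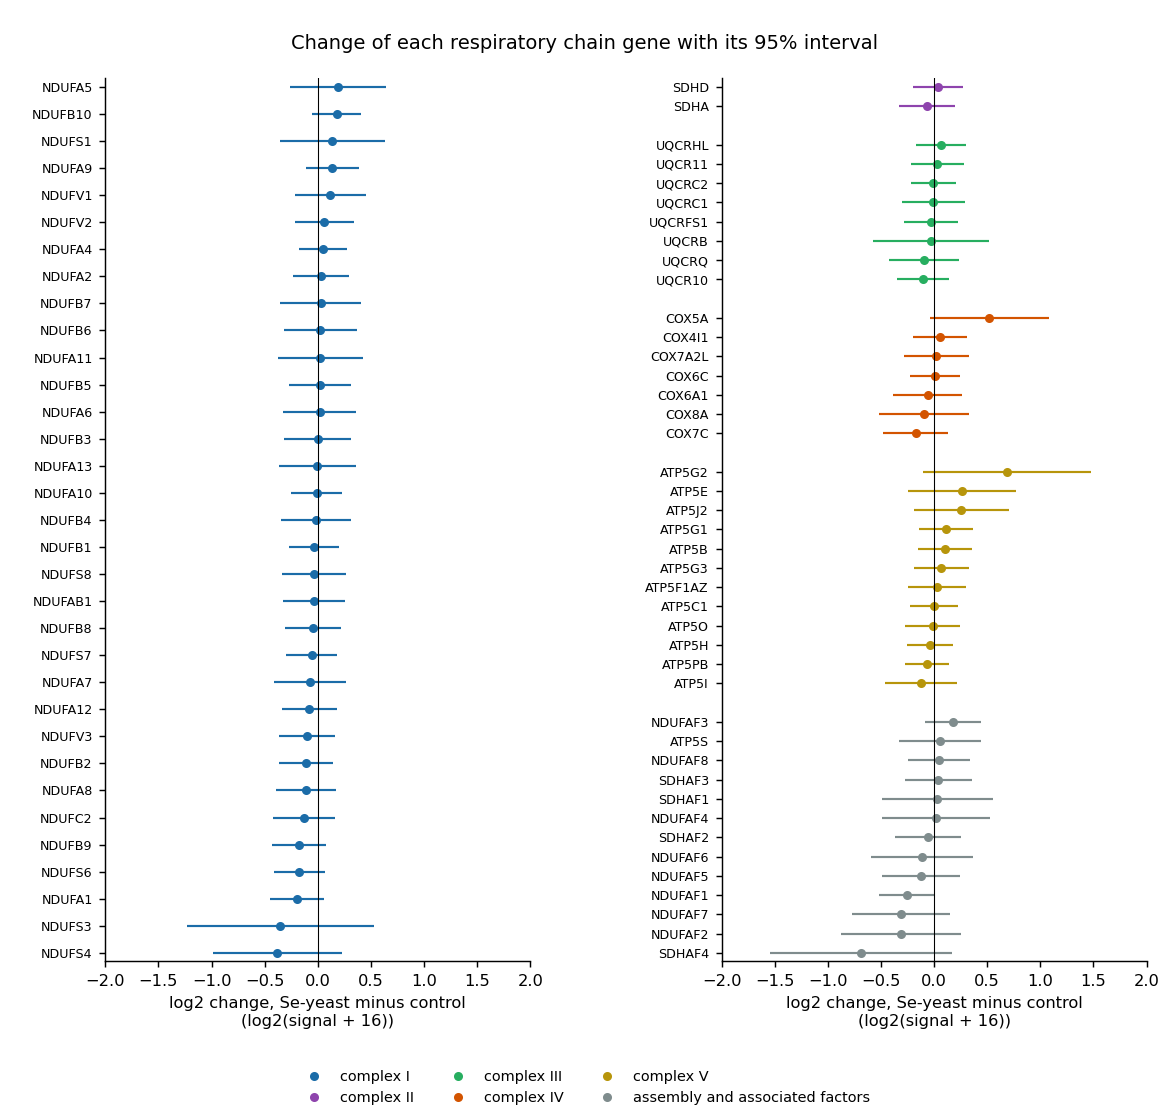
Log2 change of each of the 75 tested genes (points, Se-yeast minus control, horizontal axis in log2 units) with its 95% interval (lines), complex I on the left and the other groups on the right. For 71 of the 75 genes the interval stays inside a 2-fold change, and the widest intervals belong to NDUFS3, SDHAF4 and ATP5G2.

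Complex I is built from core subunits, of which the nuclear-encoded ones carry the flavin and iron-sulfur centres, and supernumerary subunits around them. The 33 tested subunits, which by symbol include NDUFA4, had a median change of -0.016, with 14 higher and 19 lower, between -0.38 and 0.19. The 6 core subunits measured, NDUFS1, NDUFS3, NDUFS7, NDUFS8, NDUFV1 and NDUFV2, had a median of 0.011, and the 27 supernumerary ones -0.016. Among the core, NDUFS1, the largest subunit, stood at 0.14, the flavin-binding NDUFV1 at 0.12 and its partner NDUFV2 at 0.06. The iron-sulfur subunits NDUFS7 and NDUFS8, which lie near the ubiquinone site, stood at -0.06 and -0.04.

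NDUFS3, a core subunit of the matrix arm, varied most between birds among the 75 tested genes. Its signal was 1389, 1724, 1026, 514 and 382 in Se-yeast birds, against 779.9, 795, 1635 and 1499.6 in control birds. Each group held both high and low birds: Se-yeast replicates 1 and 2 and control replicates 3 and 4 lay at 1389 or more, Se-yeast replicates 4 and 5 at 514 or less, and the groups overlapped. The change was -0.35 with an interval from -1.24 to 0.53, and lay between -0.67 and -0.06 over the alternative settings.

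The complex I subunits with the smallest p did not pass. NDUFB10, a supernumerary subunit of the membrane arm, had signals of 17982, 19003, 18131, 18743 and 14809 in Se-yeast birds, against 15759, 15653, 15573 and 15424 in control birds. The first 4 Se-yeast birds lay above every control bird and the fifth below all of them, and the change was 0.18 (interval -0.05 to 0.41). NDUFA1, a small membrane subunit needed for assembly in mammals, had signals of 7841, 8001, 6839, 7604 and 7348 in Se-yeast birds, against 8096, 7551, 8821 and 10199 in control birds. The highest values were those of control replicates 3 and 4, the groups overlapped, and the change was -0.20 (interval -0.45 to 0.06). NDUFS6, a zinc-binding subunit, had signals of 11916, 12893, 9939.9, 10889 and 10229 in Se-yeast birds, against 12238, 12354, 12464 and 13216 in control birds. All Se-yeast birds but replicate 2 lay below every control bird, and the change was -0.18 (interval -0.42 to 0.07).

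The other complex I subunits had larger p. NDUFA4, which was first assigned to complex I and in mammals is found in complex IV, had signals of 28767, 29948, 28703, 27794 and 28096 in Se-yeast birds, against 24656, 26015, 30728 and 30106 in control birds. The groups overlapped throughout, at a change of 0.05. By its symbol NDUFA4 was counted with complex I here, and the complex IV values leave it out. NDUFB4 had signals of 7036, 10216, 8307, 7538 and 8105 in Se-yeast birds, against 7156, 6906, 9889 and 9545 in control birds, also overlapping, at -0.02 on its brightest probe set. On the higher side stood NDUFA5 at 0.19, NDUFA9 at 0.14, and NDUFA2, NDUFB6, NDUFB7, NDUFA11, NDUFB5, NDUFA6 and NDUFB3 between 0.00 and 0.03. On the lower side stood NDUFB9 at -0.17, NDUFC2 at -0.13, NDUFA8 and NDUFB2 at -0.11 each, and NDUFV3 at -0.10. NDUFA12 and NDUFA7 each stood at -0.08, and NDUFB8, NDUFAB1 (the mitochondrial acyl carrier protein), NDUFB1, NDUFA10 and NDUFA13 between -0.04 and -0.01. NDUFS5 lay below the signal filter, at signals from 10.2 to 135 in Se-yeast birds and from 28.7 to 79.7 in control birds, and was not tested.

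Complex II was read through 2 of its subunits. SDHA, the flavoprotein that oxidises succinate, had signals of 9388, 11582, 10957, 8899 and 12164 in Se-yeast birds, against 11293, 11586, 10912 and 10369 in control birds. SDHD, a membrane anchor, had signals of 8138, 7564, 7729, 7307 and 7177 in Se-yeast birds, against 6523, 7692, 8107 and 7357 in control birds. The groups overlapped in both genes, at changes of -0.07 (interval -0.33 to 0.19) and 0.03 (interval -0.20 to 0.27).

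Complex III was represented by 8 genes. They lay between -0.11 and 0.07, with a median of -0.017, 2 higher and 6 lower, and all 8 intervals lay inside a 1.5-fold change. UQCR10, a small subunit next to cytochrome c1, had signals of 25489, 21438, 22705, 25072 and 24948 in Se-yeast birds, against 26145, 21849, 25956 and 29365 in control birds. UQCRQ, another small membrane subunit, had signals of 24740.4, 26742, 21244, 19375 and 17689 in Se-yeast birds, against 21603, 18868, 27567 and 25565 in control birds. UQCRHL, the annotation's symbol for a gene of the acidic hinge protein, had signals of 26089.8, 27022, 22548, 22720.4 and 21605 in Se-yeast birds, against 22207, 21068, 24047 and 24034 in control birds. These had the smallest p of the complex, their groups overlapped, and their changes were -0.11, -0.09 and 0.07. The core proteins UQCRC1 and UQCRC2 stood at -0.01 each, the iron-sulfur protein UQCRFS1 and UQCRB at -0.03 each, and UQCR11 at 0.03. UQCRC2 had the smallest spread between birds of all members, at an SD of 0.059 on the log2 scale.

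In complex IV, COX5A had the largest change of the 7 tested subunits, without passing the test. COX5A, a matrix-side subunit that joins early in assembly, had signals of 437, 536, 608, 674 and 651 in Se-yeast birds, against 233, 328, 469.6 and 672 in control birds. Control replicates 1 and 2 were lowest, control replicate 4 was level with the highest Se-yeast birds, and the groups overlapped. The change was 0.52 (interval -0.04 to 1.08), from 0.28 to 0.77 over the alternative settings. The gene's other probe set stood at 0.34, with 5 Se-yeast signals of 302 to 403 and 4 control signals of 216 to 318.

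The other complex IV subunits tested lay between -0.17 and 0.06. COX4I1, the widespread isoform of the largest nuclear-encoded subunit, had signals of 33576, 39537, 28859, 32014 and 30744 in Se-yeast birds, against 30811, 28453, 32639.8 and 34418 in control birds. COX6A1, the isoform of tissues other than muscle and heart in mammals, had signals of 44279, 32182, 32346, 42792 and 42597 in Se-yeast birds, against 36619, 32909, 45015 and 47682 in control birds. COX8A, whose lowest and highest birds were both controls, had signals of 9131, 8790.2, 7191, 6737 and 6760.1 in Se-yeast birds, against 5648, 7480.0, 12149 and 8756 in control birds. The groups overlapped in each, at changes of 0.06, -0.06 and -0.10. COX7A2L, which in mammals links complexes III and IV into supercomplexes, had signals of 6324, 6168, 6872, 5411 and 6738 in Se-yeast birds, against 7026, 5101, 7463 and 5464 in control birds. Its change was 0.02 and that of COX6C 0.01. COX7B lay below the filter, at 6.48 to 63.2 in Se-yeast birds and 26.3 to 74.1 in control birds. The median over the 7 tested subunits was 0.006. Muscle isoforms of the COX6A and COX7A families were not analysed here.

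For ATP synthase, 8 of the 12 tested subunits stood higher and 4 lower, and their median was 0.048, beside 0.015 over all tested genes. Over the alternatives this median lay between -0.011 and 0.109, so its sign was not fixed. The catalytic beta subunit ATP5B stood at 0.10, the gamma subunit ATP5C1 at 0.00, and the stalk subunits ATP5PB, ATP5H and ATP5O at -0.06, -0.04 and -0.01. Subunit c, which forms the rotor ring, is encoded by several genes whose mature protein is the same in mammals, and 3 of them were measured. ATP5G1 had signals of 20115, 22715, 17338, 20179 and 19803 in Se-yeast birds, against 18510.3, 15719, 19201 and 20582 in control birds. ATP5G3 had signals of 25061, 25082, 21895, 22063 and 20031 in Se-yeast birds, against 20147, 19132, 22606 and 25368 in control birds. Both overlapped between the groups, at 0.12 (interval -0.14 to 0.37) and 0.07 (interval -0.19 to 0.33).

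The third subunit c gene, ATP5G2, was near the signal filter. Its signals were 106, 58.1, 104, 94.6 and 129 in Se-yeast birds, against 74.6, 38.7, 105 and 22.8 in control birds. Control replicates 2 and 4 were lowest and Se-yeast replicate 5 highest, and the groups overlapped. The change was 0.69 (interval -0.11 to 1.48), and it lay between 0.41 and 0.95 over the alternatives. ATP5E, the epsilon subunit of the catalytic head, had signals of 208, 288, 222, 218 and 305 in Se-yeast birds, against 176, 134, 307 and 224 in control birds. ATP5J2, the f subunit of the membrane part, had signals of 288, 444, 349.9, 369.9 and 242 in Se-yeast birds, against 353, 239, 299 and 227 in control birds. Both overlapped between the groups, at 0.26 (interval -0.24 to 0.77) and 0.26 (interval -0.19 to 0.71). The ATP5E change was 0.09 without control replicate 2 and 0.45 without control replicate 3, and that of ATP5J2 was 0.16 without Se-yeast replicate 2 and 0.17 without control replicate 4. ATP5J, a stalk subunit, lay below the filter at 38.5 to 86.5 in Se-yeast birds and 37.9 to 59.5 in control birds.

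The 13 assembly and associated factors had the largest median absolute change of the 6 groups, at 0.116, beside 0.139 over all tested genes. Only 5 of the 13 had a mean signal over 1000. Of the factors, 6 were higher and 7 lower, with a signed median of -0.058. SDHAF4, which in yeast and mammals helps the flavoprotein of complex II to join its partner, had signals of 1089.8, 311, 271, 973 and 382 in Se-yeast birds, against 953, 1039, 939 and 522 in control birds. Se-yeast replicates 2, 3 and 5 lay at 382 or less, control replicate 4 at 522, and the other 5 birds between 939 and 1089.8. The change was -0.69 (interval -1.55 to 0.17) and lay between -1.15 and -0.39 over the alternatives. The gene's other tested probe set was also high in Se-yeast replicates 1 and 4 (204 and 236) and lower in the other Se-yeast birds (65.2 to 131), against 156 to 226 in control birds, and stood at -0.39.

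NDUFAF1, which assembles the membrane arm of complex I in mammals, had signals of 6380.4, 6710.2, 4987, 5512 and 5907 in Se-yeast birds, against 7252, 6628, 6618 and 7604 in control birds. All Se-yeast birds but replicate 2 lay below every control bird, and replicate 2 lay above control replicates 2 and 3, so that the groups overlapped. Its change of -0.26 (interval -0.52 to 0.00) had the smallest p of the 75 tested genes and kept its sign over the alternatives, at -0.37 to -0.20. NDUFAF7, a methyltransferase of a complex I core subunit in mammals, had signals of 414, 668, 569, 594 and 474 in Se-yeast birds, against 504, 534, 973 and 764 in control birds, with control replicate 3 highest. Its change was -0.31 (interval -0.78 to 0.15) and -0.14 without control replicate 3. It was -0.04 with the mean of the W-linked probe sets as a covariate, a mean that itself differed between the diets. The complex I assembly partners NDUFAF3 and NDUFAF4 stood at 0.18 and 0.02 on their brightest probe sets. NDUFAF3 had signals of 3169, 3651, 3787, 3212 and 2936 in Se-yeast birds, against 2667, 3076, 2867 and 3208 in control birds, with Se-yeast replicates 2, 3 and 4 above every control bird. NDUFAF4 had signals of 507, 535, 757, 701 and 1279 in Se-yeast birds, against 791, 725, 636 and 680.0 in control birds, with Se-yeast replicate 5 highest and replicates 1 and 2 lowest of all birds. The rest were NDUFAF5 at -0.13, NDUFAF6 at -0.12, NDUFAF8 at 0.05, SDHAF1 at 0.03, SDHAF2 at -0.06, SDHAF3 at 0.04 and ATP5S at 0.06.

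**Figure D2:**
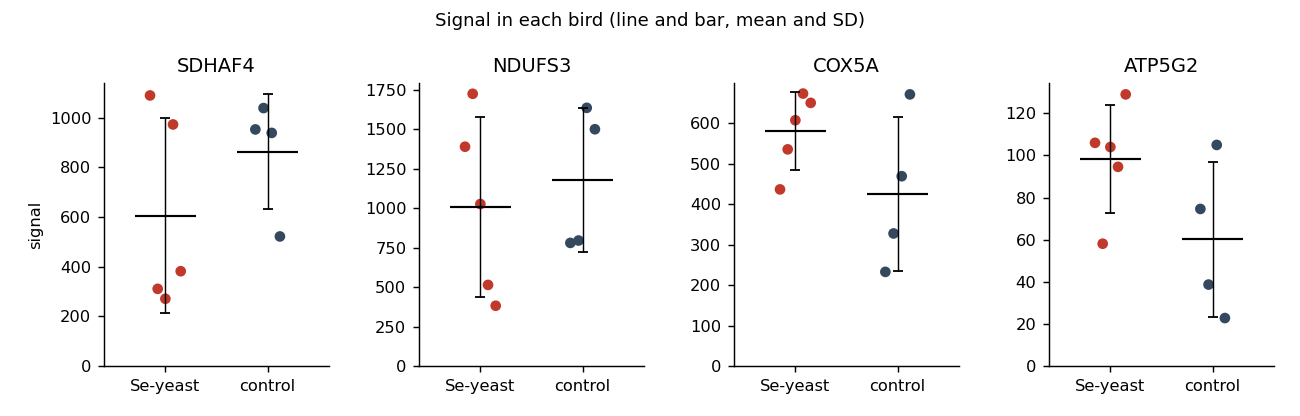
Signal (vertical axis, linear, from 0) of SDHAF4, NDUFS3, COX5A and ATP5G2 in the 5 Se-yeast birds (red) and the 4 control birds (dark), with the mean (long line) and SD (bar) of each group. In all 4 genes the groups overlap, and SDHAF4 falls into birds near 1000 and birds at 522 or less.

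Several tested probe sets were annotated to the same gene for 29 of the members, and they did not always give the same change. In 13 of these genes the tested probe sets had changes of opposite sign. Over all 121 tested probe sets of the family, 61 were higher and 60 lower, none passed the adjusted threshold (smallest adjusted p 0.999), 5 had an unadjusted p under 0.05 and 3 had groups that did not overlap, all of them probe sets other than the brightest of their gene. These are 4.13% and 2.48% of the 121, near the 4.67% and 1.64% of all tested probe sets. The counts are therefore no result about the family. Within the 46 tested probe sets other than the brightest they are 10.87% and 6.52%, above those shares, and this difference was not tested. The probe sets are described only to show how probe sets annotated to the same gene differ. The furthest apart was a dim probe set of NDUFAF3, with signals of 135, 134, 95.5, 89.9 and 83.7 in Se-yeast birds, against 52.2, 38.8, 55.5 and 27.4 in control birds. Every Se-yeast bird lay above every control bird there, at a change of 1.06 (interval 0.43 to 1.68), while the bright probe set of the gene stood at 0.18. The dim probe set carries A1 in its name where the bright one carries S1. Which strand each reads was not checked, so the dim one may not read the NDUFAF3 transcript. A second probe set of UQCR10 had signals of 6867, 6760.4, 6609, 6459 and 6555 in Se-yeast birds, against 8136, 6898, 7649 and 9776 in control birds. The groups were fully apart in the other direction, at -0.28 (interval -0.53 to -0.02), and the brightest stood at -0.11. A second probe set of NDUFS6 had signals of 8613, 9449.9, 7269, 8491 and 8093 in Se-yeast birds, against 9843, 9984, 9598 and 10546 in control birds, again with every Se-yeast bird lower, at -0.26 (interval -0.49 to -0.02), against -0.18 on the brightest. That probe set ends in _x_at, which marks probes that can also read other transcripts, as do _s_at endings; 20 of the 75 brightest probe sets carry one of these. The remaining 2 with an unadjusted p under 0.05 were probe sets of NDUFAF4, at 0.57, and of NDUFB8, at -0.46, with overlapping groups. That of NDUFAF4 likewise carries A1 in its name, where the gene's brightest carries S1. The second probe sets of UQCR10, NDUFS6 and NDUFB8 were named after their values were seen. In 5 genes the tested probe sets differed by more than 0.5 on the log2 scale: NDUFAF3, NDUFAF4, NDUFB4, NDUFS4 and ATP5J2. For NDUFB4 they ran from -0.02 on the brightest to 0.86 on the dimmest, and for ATP5J2 from -0.46 to 0.65. For NDUFS4 the brightest stood at -0.38 and the other at 0.26.

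**Figure D3:**
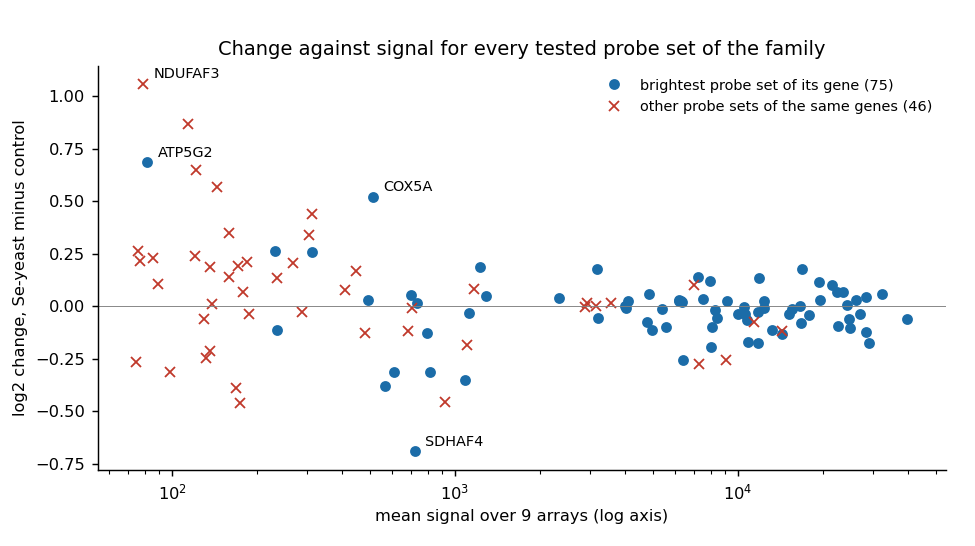
Log2 change (vertical axis, Se-yeast minus control) against mean signal over 9 arrays (horizontal log axis) for the 75 brightest probe sets (circles) and the 46 other tested probe sets of the same genes (crosses). Changes past 0.5 in size occur only below a mean signal of 1000 among these 121 probe sets.

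Birds of the same diet differed in the level of the whole family. The median deviation of the 75 members from each gene's own mean over the 9 birds was -0.013, 0.123, -0.024, -0.009 and -0.066 on the log2 scale in Se-yeast replicates 1 to 5, against -0.010, -0.144, 0.070 and 0.136 in control replicates 1 to 4. The lowest and the highest bird were both controls, and the means of these medians were 0.002 ± 0.071 in Se-yeast birds (SD, n = 5) and 0.013 ± 0.121 in control birds (SD, n = 4). For all 10377 tested genes the same medians lay between -0.014 and 0.053. Control replicate 2 was the lowest of the 9 birds in 20 of the 70 members outside chromosome Z. It was also the lowest bird in the medians of complexes I (-0.160), III (-0.162), IV (-0.221) and V (-0.198), while its median was 0.073 for complex II and -0.031 for the assembly factors. Se-yeast replicate 2 was above 0 in the median of every complex, from 0.061 (complex II) to 0.214 (complex III).

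Subunits of the chain were positively correlated with each other across birds. With group means removed, the median correlation between pairs of the 75 members over the 9 birds was 0.24, and it was 0.35 within complex I, 0.39 within complex III, 0.27 within ATP synthase and 0.20 within complex IV. Among the assembly factors it was -0.037. Over all pairs of tested genes it was 0.0035, among mitochondrial ribosomal proteins 0.15 and among cytosolic ribosomal proteins 0.54. Among the listed citric acid cycle genes, which included the pyruvate enzymes PC and PDHB, it was 0.0051. These values are descriptions, since all genes share the same 9 arrays and their scaling. Cytosolic ribosomal proteins were likewise lowest in control replicate 2, with a median deviation of -0.220. Mitochondrial ribosomal proteins (-0.062 there) and the listed citric acid cycle genes (-0.034 there) were not. Their lowest birds were Se-yeast replicate 4 (-0.109) and Se-yeast replicate 5 (-0.106). The red blood cell markers HBA1, HBAD and SLC4A1 were highest in that bird, at a median deviation of 1.83, and hepatocyte markers lowest, at -0.302. HBZ, the fourth red cell marker on the array, lay below the filter. Summed red cell marker signals ran from 17349 to 47812 in Se-yeast birds and from 20284 to 70516 in control birds, and summed hepatocyte marker signals from 432801 to 664437 and from 368783 to 435481 in the same groups. The part of either in the subunit levels was not tested.

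**Figure D4:**
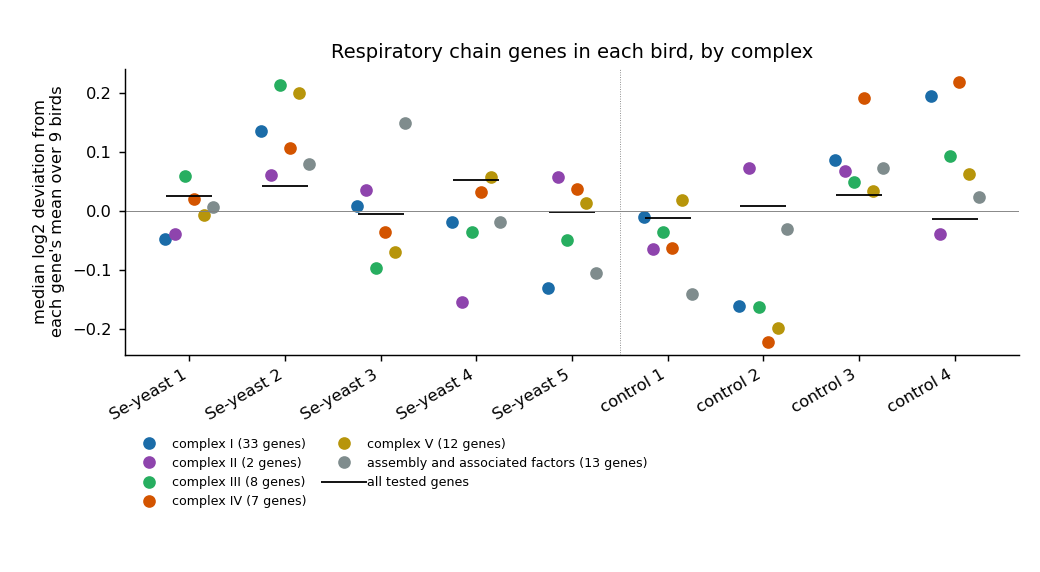
Median log2 deviation from each gene's own mean (vertical axis) in each of the 9 birds (horizontal axis, Se-yeast left, control right) for the 5 complexes and the assembly factors (coloured points) and for all tested genes (black bars). Complexes I, III, IV and V lie lowest in control replicate 2, at -0.160 to -0.221.

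Of the 78 genes, 5 lie on chromosome Z in the RefSeq table, and Se-yeast replicate 1 was the lowest of the 9 birds on the brightest probe set of each. Birds have ZZ males and ZW females, and Z-linked genes are only partly dosage compensated. ATP5I, subunit e of ATP synthase, had signals of 18952, 29458, 25377, 33295 and 29879.7 in Se-yeast birds, against 30169.7, 25617, 29332 and 32705 in control birds. COX7C, a small complex IV subunit, had signals of 19976, 30960.5, 28073, 29413 and 29504 in Se-yeast birds, against 28878, 27148, 32832 and 34763 in control birds. ATP5F1AZ, the Z-linked copy of the catalytic-head subunit alpha, had signals of 21418, 31601, 25042, 28546 and 25513 in Se-yeast birds, against 25648, 22990.1, 26159 and 28335 in control birds. In ATP5I and COX7C the first Se-yeast bird lay well below the other 8, and in ATP5F1AZ just below the next.

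The largest gaps were in the 2 dimmer Z-linked genes. NDUFS4, a complex I subunit that in mammals stabilises the matrix arm, had signals of 226, 767, 456, 642 and 481 in Se-yeast birds, against 588, 735, 567 and 631 in control birds. NDUFAF2, a late assembly factor of complex I, had signals of 346, 839, 908, 813 and 832 in Se-yeast birds, against 935, 765, 1136 and 752 in control birds. Other, dim probe sets of NDUFS4 and COX7C were also tested, and Se-yeast replicate 1 was not lowest there. NDUFS4 was lowest in control replicate 3 (42.8, against 45.2 in Se-yeast replicate 1). COX7C was lowest in control replicate 1 (113, against 116 in Se-yeast replicate 1). Against the mean of the other 8 birds, Se-yeast replicate 1 differed by -1.345 in NDUFS4, -1.285 in NDUFAF2, -0.631 in ATP5I, -0.591 in COX7C and -0.313 in ATP5F1AZ on the log2 scale. In the 70 members outside chromosome Z this bird was the lowest in 7, with a median deviation of 0.006. Over all 480 tested genes on chromosome Z it was the lowest in 214, with a median deviation of -0.303, while the other 8 birds lay between -0.010 and 0.118.

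The diet contrast of the Z-linked members was smaller without that bird in every one but ATP5F1AZ. With all birds the log2 changes were -0.38 for NDUFS4, -0.31 for NDUFAF2, -0.17 for COX7C, -0.13 for ATP5I and 0.03 for ATP5F1AZ. Without Se-yeast replicate 1 they were -0.13, -0.06, -0.06, 0.00 and 0.10 in the same order. RefSeq places the genes of 10 probe sets on chromosome W, and those of HINTW and LOC107049459, singled out after their values were seen, varied most between birds. Both were highest in the same bird, at 8.69 and 10.31 on the log2(signal + 16) scale, against 5.32 to 7.02 and 5.38 to 7.09 in the other 8 birds. The other W-linked probe sets did not all go this way. That bird was highest in MBD2 (11.64), but lowest in LOC427025 (5.61), LOC425347 (6.83) and NEDD4L probe sets at 8.088 and 8.086. In the remaining NEDD4L probe sets it was neither highest nor lowest. With the level of LOC107049459 as a covariate the changes were -0.13, -0.05, -0.06, 0.02 and 0.09. As that level stood out mainly in Se-yeast replicate 1, this fit comes close to leaving the bird out and is no separate check. With the mean of all 10 W-linked probe sets as the covariate in its place, the changes were 0.12, 0.33, 0.05, 0.09 and 0.14. All but ATP5F1AZ then had the opposite sign to the fit without a covariate. That mean, to which several NEDD4L probe sets contribute, ran higher on average in Se-yeast than in control birds, with control replicate 4 among the Se-yeast values. The covariate is therefore in part shared with the diet, and the fit with it separates them only in part. The birds' sex is not labelled, and its part in these values was not tested.

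**Figure D5:**
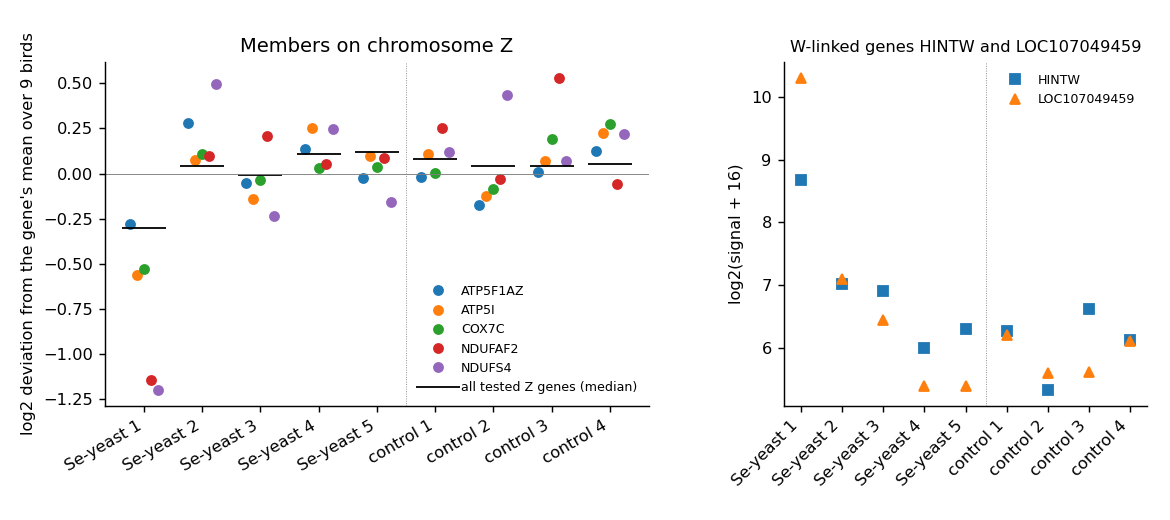
Left, log2 deviation from each gene's own mean in each bird for the 5 members on chromosome Z (points) and the median of all 480 tested Z-linked genes (black bars); right, log2(signal + 16) of the W-linked genes HINTW and LOC107049459. Se-yeast replicate 1 is lowest on the brightest probe set of all 5 members and highest in these 2 W-linked genes, though not in every W-linked probe set.

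Genes that work with the chain were compared in the same fit, and none passed the adjusted threshold in any of these lists. At an unadjusted p under 0.05 stood 3 of 31 further assembly factors and 2 of 17 regulators of mitochondrial biogenesis. So did 2 of 10 genes of electron carriers and ubiquinone synthesis and 1 of 13 listed citric acid cycle genes, PC and PDHB included. Of ribosomal proteins, 3 of 64 mitochondrial and 0 of 67 cytosolic ones did. The share was 5.05% over all tested genes and 4.67% over all tested probe sets. The groups did not overlap in 1 of the 17 regulators, 1 of the 10 electron carrier genes and 1 of the 64 mitochondrial ribosomal proteins. They did not overlap in 1.84% of all tested genes, and in no gene of the other lists. The further assembly factors, 11 higher and 20 lower, had a median of -0.104. COX17, the copper chaperone of complex IV, stood at -0.45, with a mean signal of 2871 ± 623 in Se-yeast birds (SD, n = 5), against 3876 ± 448 in control birds (SD, n = 4). COX18, which inserts a complex IV subunit into the membrane, stood at -0.40 and FOXRED1, a complex I factor, at -0.32, while COX10, which makes heme for complex IV, stood at 0.42 and BCS1L, an assembly factor of complex III, at 0.41. The biogenesis regulators, 9 higher and 8 lower, had a median of 0.066. POLRMT, the RNA polymerase that transcribes mitochondrial DNA, stood at 0.82 with groups that did not overlap, at a mean signal of 721 ± 184 in Se-yeast birds (SD, n = 5), against 394 ± 64.6 in control birds (SD, n = 4). PPARGC1A, a coactivator of genes for mitochondrial biogenesis, stood at 0.67 with overlapping groups. TFB1M stood at 0.45, TFAM, which packages mitochondrial DNA, at -0.21, the transcription factor NRF1 at -0.03 and GABPA at -0.23, and the other 11 regulators lay between -0.14 and 0.47.

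The electron carrier genes divided into 5 higher and 5 lower. COQ6, a hydroxylase of ubiquinone synthesis, stood at 0.31 with groups apart, COQ3 at 0.33 and COQ4 at 0.54, while COQ7 stood at -0.26, COQ9 at -0.05, COQ2 at 0.04 and COQ5 at 0.02. CYCS, cytochrome c itself, stood at -0.16, and the electron transfer flavoprotein genes ETFDH and ETFA at -0.13 and -0.07. Of 13 tested genes listed for the citric acid cycle, 7 were higher and 6 lower, from IDH3A at -0.34 to OGDH at 0.46. SUCLA2, at 0.43, was the gene with an unadjusted p under 0.05. These counts take in the pyruvate enzymes PC, at 0.06, and PDHB, at -0.15, which are not enzymes of the cycle itself. Of 64 tested mitochondrial ribosomal proteins, 17 were higher and 47 lower, at a median of -0.084, and of 67 tested cytosolic ribosomal proteins 44 were higher and 23 lower, at 0.043. These medians stand beside 0.015 over all tested genes and -0.007 over the respiratory chain.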

How the data were processed

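Liver RNA of 9 birds was measured on 1-colour Affymetrix chicken arrays, 1 per bird. The deposited values are linear probe set intensities that the authors made with MAS5, per the submitters' processing notes, with its version not given in the sources used here. As every array was brought to the same mean, a change is measured against the other probe sets. The table held 38535 probe sets, 96 of them array controls that were left out. In the platform annotation 27168 of the rest had 1 gene symbol, 177 several and 11094 none here. Chromosomes came from the RefSeq table of GRCg7b, which matched 77 of the 78 genes by gene identifier. A probe set reading COX7A2 also names TMEM30A and was left out.

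Values were taken as log2(signal + 16), which shrinks changes of dim probe sets. The 23063 probe sets at or above the 40th percentile of the mean (a signal of 64.7) entered a two-sided test by limma 3.58.1 (R 4.3.3; lmFit and eBayes with an intensity trend), Se-yeast minus control without covariates, with Benjamini-Hochberg adjustment over all of them. The fit was also run on simulated data in which probe sets varied independently, unlike here, and no result rests on that run. Precision is limited by how few arrays there are. The members, gene lists and tests were chosen with earlier results of these data known, so lists are described without a test. Values in every bird are given for the 3 members of each group with the smallest p, the 5 with the largest spread, those on chromosome Z or W, members of isoform families and genes whose probe sets differ by over 0.5. Alternatives were pseudocounts of 1 and 64, testing all probe sets, a filter at percentile 60, quantile normalisation, median centring, no trend, the replicate number as a block, 2 W-chromosome covariates, other probe set choices and leaving out each bird.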

Additional observations from a re-analysis of the deposited data

Results flagged for a closer look

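In 150 sets of values (75 genes in each diet group), a bird stood far from the rest of its group in 8, measured as its gap to the nearest bird over the range of the group. Chance gives such a gap in about 1 of 20 sets. Both Z-linked cases were Se-yeast replicate 1, for NDUFAF2 (0.883 of the range, at a signal of 346) and COX7C (0.777, at 19976). Control replicate 2 was the low bird for NDUFA11 (0.920, at 6099), NDUFA10 (0.835, at 4747) and NDUFAF8 (0.831, at 1158). NDUFAF8 was also low in Se-yeast replicate 2 (0.755, at 1023). SDHAF4 was low in control replicate 4 (0.852, at 522), and NDUFB10 in Se-yeast replicate 5 (0.778, at 14809).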

How the results depend on the processing

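No member passed the threshold under any of the 19 other fits, the replicate block and the omission of each bird included. The number of probe sets called over the whole array was 6, and it was 3 without an intensity trend, 3 with the replicate block, 2 with the mean W-chromosome covariate and 3 to 7 when single birds were left out, with 3 on leaving out Se-yeast replicate 1, 3 or 4 or control replicate 3. The labels name no pairing of same-numbered birds. Their deviations from the group means correlated at -0.106 to 0.038, values that cannot show whether such birds were handled together. The median change of the members lay between -0.066 and 0.018. That of the assembly factors, -0.058, lay between -0.163 (without Se-yeast replicate 3) and 0.017 when single birds were left out. Of 629 values of the 31 genes followed by bird, 50 had another sign than in the fit described, and 3 of these moved by more than the spread between birds: with the mean W-chromosome covariate NDUFAF2 stood at 0.33 and NDUFS4 at 0.12, and the mean over all probe sets of NDUFB4 was 0.31. The mean W-chromosome covariate itself differed between the diets, and the causes were not tested. With median centring the median of all tested genes was -0.04, and without it 0.015. Members near the signal filter, such as ATP5G2, are limited by signal over background, and intervals cover only the spread between these 9 birds.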
